A study of Sus scrofa with 61 samples.

Results

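The protein components of the cytosolic ribosome were followed as one module in the developing pig liver. A gene was taken as a member when a probe-set of the array carried its symbol and no other, and the symbol was that of a numbered large subunit protein (RPL), a numbered small subunit protein (RPS), a stalk protein (RPLP0, RPLP1 or RPLP2) or RPSA. Kinases of the RPS6K family were left out. This gave 61 genes of the 6765 named on the array, measured by 93 of the 10069 probe-sets with 1 symbol. There were 37 large subunit and 24 small subunit genes, and 3 of the large subunit genes, RPL22L1, RPL26L1 and RPL7L1, are paralogues of another ribosomal protein gene. Each gene was represented by its probe-set of highest mean signal, and 37 genes had a single probe-set.

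Each cytosolic ribosome joins a small subunit, which binds the mRNA and decodes it, to a large subunit, which forms the peptide bonds and holds the exit tunnel for the growing chain. Ribosomal proteins are made in nearly equal numbers, assembled with ribosomal RNA in the nucleolus, and their mRNAs carry a terminal oligopyrimidine tract through which mTOR signalling controls their translation. The liver makes much of the body's secreted protein, and it grows rapidly around birth.

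The samples were livers of German Landrace pigs whose dams had all received a gestational low protein (LP) diet, with 1 array per animal. Fetuses of 94 days post conception (dpc, n = 16), newborns of 1 day post natum (dpn, n = 14), piglets of 28 dpn (n = 15) and pigs of 188 dpn (n = 16) were sampled. Adjacent stages were compared as period I (94 dpc to 1 dpn), period II (1 to 28 dpn) and period III (28 to 188 dpn), and the earliest with the latest stage, and the labels give no purpose beyond following expression over these ages. Per the study's methods, fetuses were taken by Caesarean section, and animals of 28 and 188 dpn were fasted overnight. At each stage the animals were chosen as pairs of litter mates. At 94 dpc and 1 dpn these pairs joined a light and a heavy animal. Fetuses and postnatal animals came from separate experiments with different sows, and period I covers late gestation as well as birth. Litter and sex are not in the labels, so standard errors and p-values treat all animals as independent, although most had a litter mate in their stage. In comparisons with the fetuses, experiment, mode of delivery, feeding and age cannot be told apart. The postnatal animals were all farrowed within 1 experiment, and between their stages feeding and age cannot be told apart. Arrays of offspring of adequately fed dams were not analysed here, so all values describe age within the LP group and none describes the diet. Values are log2 of the deposited signal intensity, and changes are later minus earlier stage on the log2 scale. In each comparison limma tested the probe-sets brighter than their array's median in 50% or more of either stage's animals, and a change was called when both P and the Storey q over all tested probe-sets were at or below 0.05.

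Of the 16 hepatocyte markers looked for, 12 were on the array by name, and all 12 lay above the array median at each stage. The median array signal fell from stage to stage, with stage medians of 166, 149, 117 and 101, although the trimmed mean of every array was about 500. Summed signal of the 8 erythroid markers ranged from 3050 to 32098 at 94 dpc, with HBE1 below the array median, and from 1195 to 4249 at 1 dpn, with HBE1, RHCE and KLF1 below it. That of 6 granulopoiesis markers ranged from 1852 to 54899 at 94 dpc, with 6 above the array median, and from 402 to 1942 at 28 dpn, with 2 above it. Summed signal of 13 proliferation markers ranged from 4534 to 19074 at 1 dpn, with 11 above the array median, and from 822 to 1428 at 188 dpn, with 2 above it. That of 8 macrophage markers ranged from 16230 to 33690 at 1 dpn and from 55594 to 82967 at 28 dpn, with 8 above the median at both. Of 10 lymphocyte markers 0 lay above the median at 1 dpn and 4 at 28 dpn. The differences between 3' and 5' probe-sets of the control transcripts also moved with stage, with actin means of 2.27, 1.78, 3.94 and 4.03 on the log2 scale. The SDs of actin within stages were 0.37, 0.35, 0.43 and 0.44. Fits with the GAPDH and actin differences as covariates therefore cannot separate them from stage, above all in period II and over the whole span. A control probe-set for 18S rRNA had stage medians of 9.15, 8.82, 14.06 and 13.13. The part of these features in the results below was not tested beyond the settings named beside them, and in whole tissue fewer cells of a type and less RNA per cell cannot be told apart.

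Ribosomal protein probe-sets were among the brightest of the array. Of the 61, 54 had a mean log2 signal above 14, a level passed by 1.02% of all probe-sets, and 51 had a mean percentile above 99 within their arrays. The brightest were RPS2, with a mean of 15.53, RPLP0 with 15.50 and RPS27A, which encodes a fusion of ubiquitin and a ribosomal protein, with 15.44. The paralogue probe-sets were dimmer, with means of 12.67 for RPL22L1, 11.81 for RPL7L1 and 11.05 for RPL26L1, and that of RPL37 had 9.28. The remaining 3 probe-sets were too dim to be tested in any comparison, those of RPL26 (mean 6.36), RPL30 (5.12) and RPS15A (4.98), so 58 genes were tested throughout. Signals of different probe-sets depend on their own sequences, so these levels give no order of mRNA abundance.

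**Figure D1:**
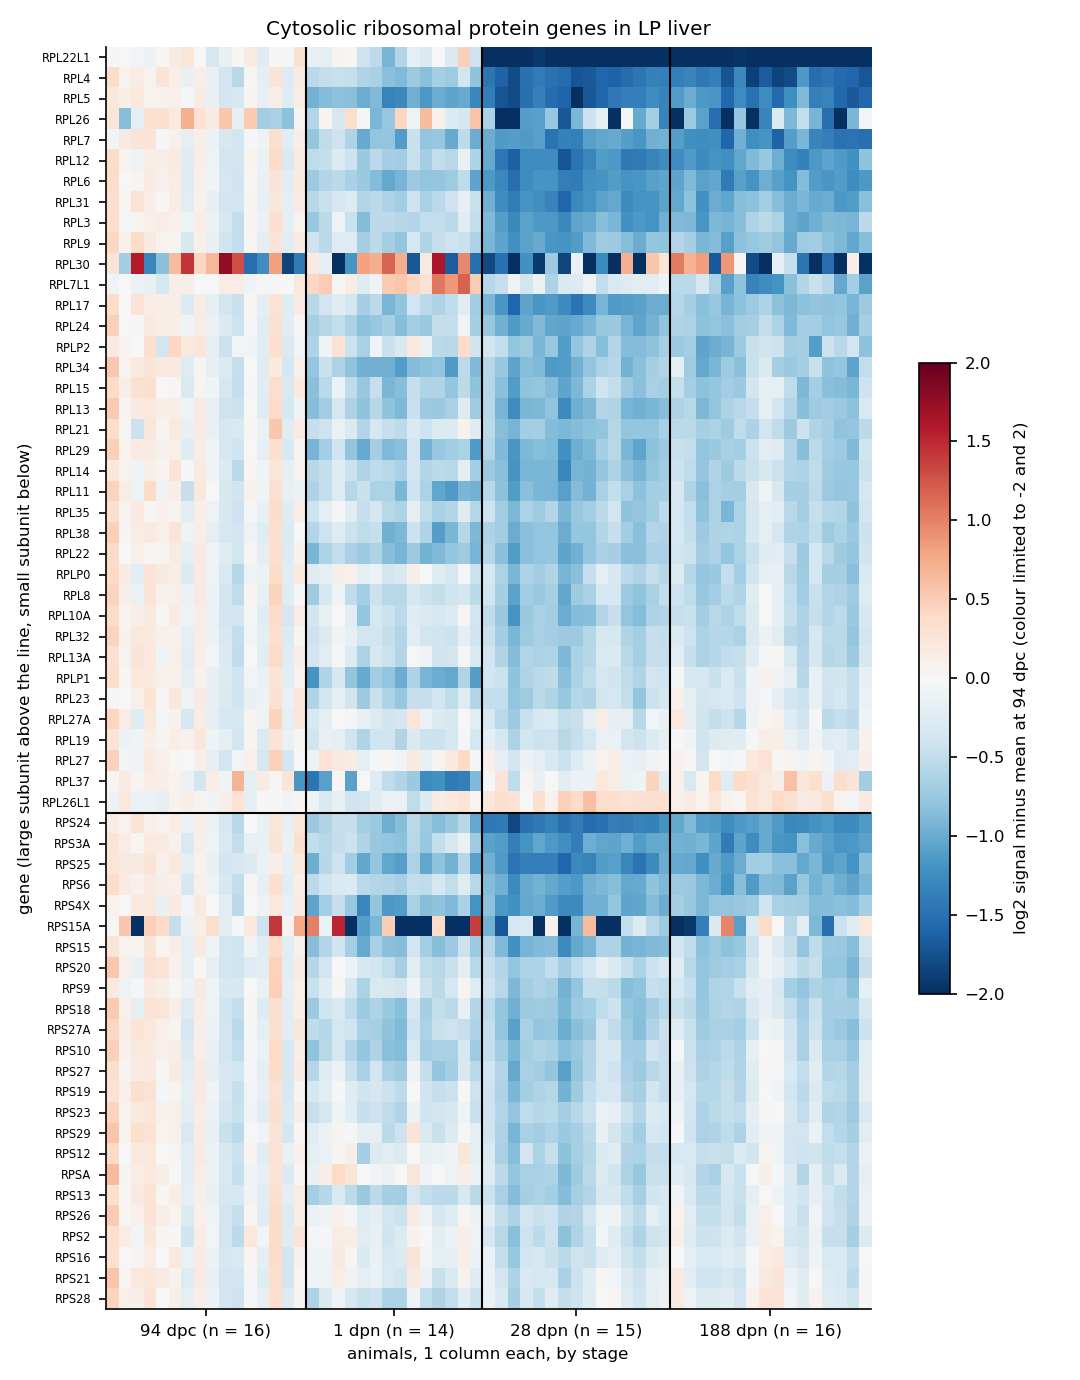
Log2 signal of all 61 genes (rows) in all 61 animals (columns, by stage) as a difference from the gene's mean at 94 dpc, in the deposited scaling. Blue cells fill most rows after birth and are deepest at 28 dpn. The RPL22L1 row is dark at 28 and 188 dpn only, the RPL26L1 row is red there, and the rows of RPL26, RPL30 and RPS15A, which were not tested, are speckled.

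Over the 4 stages, 57 of the 58 tested genes differed by limma's F test, against 92.8% of all tested probe-sets, a share close to that background. RPL27 was the gene not called, and the range of its stage means was 0.21. The largest range was that of RPL22L1, at 2.51. The mean of all 61 genes per animal was 14.67 ± 0.20 (SD, n = 16) at 94 dpc, 14.22 ± 0.13 (n = 14) at 1 dpn, 13.89 ± 0.14 (n = 15) at 28 dpn and 14.06 ± 0.13 (n = 16) at 188 dpn. On the deposited scale the highest animal of 188 dpn (14.32) lay just below the lowest fetus (14.34), whereas adjacent stages overlapped. Over the 55 genes tested in every comparison and not counted as paralogues, the means of these stages also overlapped. There the lowest fetus had 14.87 and the highest animal of 188 dpn 15.00.

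In period I most ribosomal protein genes were lower after birth. In the deposited scaling 46 of the 58 tested genes fell, against 40.4% of all tested probe-sets, and 1 rose, against 25.6%. The median change over the 61 genes was -0.47, beside -0.13 over all tested probe-sets. The direction of the majority held under both other scalings tried. Those scalings moved the median of all tested probe-sets, to -0.03, 0.02, 0.01 and -0.01 over the 4 comparisons with quantile normalization and to 0.01, 0.24, 0.06 and 0.29 with array medians subtracted. With quantile normalization 38 fell (34% of all) and 6 rose (30.5%), with a median change of -0.18, and with array medians subtracted 39 fell (31.5%) and 2 rose (32.8%), with a median of -0.33. Among the large subunit genes 30 of 35 fell and 1 rose, and among those of the small subunit 16 of 23 fell and 0 rose. The median changes were -0.49 and -0.44. In the same period 6 of 7 tested erythroid markers fell, and their part in the members' change was not tested. Of the 8 named, 7 lay above the array median at 94 dpc and 5 at 1 dpn, so some passed the filter through 94 dpc alone.

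RPL5, which carries 5S rRNA into the large subunit together with RPL11, ranged from 15.51 to 16.08 (median 15.96) at 94 dpc and from 14.53 to 15.06 (median 14.88) at 1 dpn. No newborn reached the lowest fetus, and the change was -1.03 ± 0.08 (SE, q = 2.32e-13). RPL11 ranged from 15.20 to 16.11 (median 15.64) at 94 dpc and from 14.54 to 15.41 (median 15.04) at 1 dpn, with overlap, and fell by 0.69 ± 0.10 (SE, q = 1.28e-07). Both kept that direction under both other scalings. RPS4X, the X-linked form of a small subunit protein, ranged from 14.66 to 15.41 (median 15.20) at 94 dpc and from 13.89 to 14.74 (median 14.37) at 1 dpn, a change of -0.88 ± 0.09 (SE, q = 1.25e-10). RPS25, a small subunit protein needed for initiation at some internal ribosome entry sites, ranged from 15.35 to 16.01 (median 15.82) at 94 dpc and from 14.63 to 15.32 (median 14.86) at 1 dpn. Its groups did not overlap, and the change was -0.84 ± 0.09 (SE, q = 2.98e-10). RPLP1, an acidic protein of the stalk that recruits elongation factors, ranged from 14.74 to 15.50 (median 15.20) at 94 dpc and from 13.96 to 14.80 (median 14.29) at 1 dpn and changed by -0.83 ± 0.09 (SE, q = 3.95e-10). RPL37 was the most scattered of these, ranging from 8.29 to 10.14 (median 9.52) at 94 dpc and from 7.99 to 9.47 (median 8.48) at 1 dpn, with overlap and a change of -0.85 ± 0.16 (SE, q = 6.55e-06). RPL22, an RNA-binding protein of the large subunit, RPL6 and RPL7 also had no overlap, so that 5 of the 61 genes were lower without overlap, against 4.09% of all tested probe-sets.

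A paralogue moved the other way. RPL7L1, whose product is a nucleolar relative of RPL7 that acts in assembly of the large subunit, ranged from 11.64 to 12.20 (median 12.01) at 94 dpc and from 11.76 to 13.17 (median 12.45) at 1 dpn. The newborns were spread over a wider range that overlapped the fetuses, and the change was 0.44 ± 0.11 (SE, q = 2.07e-04). It was higher under all 3 scalings and was not called with 3' to 5' differences as covariates (0.14), a setting in which 0 members rose (19.8% of all tested probe-sets) and 42 fell (29.2%). A further 11 tested genes were not called, 7 of them of the small subunit. They include RPS2 (-0.07), RPS16 (-0.08), RPS21 (-0.14), RPLP0 (-0.15), which anchors the stalk, and RPSA (0.03), also known as the laminin receptor.

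Period II divided the scalings. In the deposited scaling 37 genes fell, against 40% of all tested probe-sets, and 3 rose, against 28.1%, with medians of -0.28 for the members and -0.11 for all. With quantile normalization 44 fell (33.3%) and 4 rose (34.7%), with a median of -0.28. With array medians subtracted, however, 11 fell (22.4%) and 20 rose (47.1%), and the median turned to 0.07. No direction of its own can be given for the module as a whole between 1 and 28 dpn. Its median lay below that of all tested probe-sets as deposited (-0.28 beside -0.11) and with quantile normalization (-0.28 beside 0.02). Subtracting array medians shifts all probe-sets of an array alike, so that gap (0.07 beside 0.24) is the deposited one by construction. As deposited, 23 large and 14 small subunit genes fell, and 3 large and 0 small subunit genes rose. Other cell markers moved in the same period: 5 of 5 tested granulopoiesis markers and 10 of 11 tested proliferation markers fell. In turn 6 of 8 macrophage markers rose. All 4 tested lymphocyte markers (10 named) rose too, but 0 of the 10 lay above the array median at 1 dpn. They passed the filter only through 28 dpn, so that count was largely set by it. Of the granulopoiesis markers 5 lay above the median at 1 dpn and 2 at 28 dpn, so some passed through 1 dpn alone. The part of all these markers was not tested.

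Some single genes changed in the same direction under all 3 scalings. RPL22L1, whose product can take the place of RPL22 in the large subunit, ranged from 13.64 to 14.29 (median 13.98) at 94 dpc, from 13.05 to 14.46 (median 13.75) at 1 dpn, from 11.06 to 12.04 (median 11.59) at 28 dpn and from 10.95 to 12.01 (median 11.43) at 188 dpn. All animals of 28 dpn and later lay below all earlier ones. The change in period II was -2.19 ± 0.11 (SE, q = 7.17e-17), a 4.56-fold difference, -2.34 with quantile normalization and -1.84 with array medians subtracted. RPL22 itself ranged from 14.38 to 14.82 (median 14.56) at 1 dpn and from 14.21 to 14.75 (median 14.53) at 28 dpn, with a change of -0.03 ± 0.07 (SE, q = 0.135) that was not called. Among the core subunit genes, RPL4, which lines the exit tunnel, ranged from 14.40 to 14.90 (median 14.63) at 1 dpn and from 13.49 to 13.93 (median 13.76) at 28 dpn without overlap and changed by -0.89 ± 0.07 (SE, q = 3.54e-13). RPL12, at the base of the stalk, ranged from 14.58 to 15.17 (median 14.81) at 1 dpn and from 13.59 to 14.31 (median 14.01) at 28 dpn, also apart, and changed by -0.82 ± 0.08 (SE, q = 2.61e-11), but the mean of its 3 probe-sets changed by -0.05 and was not called. RPL31, near the tunnel exit, ranged from 15.07 to 15.60 (median 15.26) at 1 dpn and from 14.18 to 14.80 (median 14.56) at 28 dpn and changed by -0.74 ± 0.07 (SE, q = 3.01e-11). RPL7L1 fell back, ranging from 11.36 to 11.93 (median 11.73) at 28 dpn, a change of -0.74 ± 0.12 (SE, q = 4.58e-07) that was not called with the 3' to 5' covariates. In all, 10 genes were lower without overlap in the deposited scaling, against 5.42% of all tested probe-sets. The other 6 were RPL6, RPL17, RPS3A, RPS6, RPS24 and RPSA, with changes between -0.47 and -0.72, and each of these was also below 0 with quantile normalization and with array medians subtracted.

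The 3 risers of period II were called under all 3 scalings. RPL37 ranged from 7.99 to 9.47 (median 8.48) at 1 dpn and from 8.94 to 9.89 (median 9.39) at 28 dpn, a change of 0.82 ± 0.14 (SE, q = 2.24e-06), and so returned to its range before birth. RPL26L1, a close relative of RPL26, ranged from 10.45 to 11.23 (median 10.82) at 1 dpn and from 10.95 to 11.55 (median 11.28) at 28 dpn, with overlap and a change of 0.44 ± 0.08 (SE, q = 4.04e-06). RPLP1 ranged from 13.96 to 14.80 (median 14.29) at 1 dpn and from 14.30 to 14.79 (median 14.64) at 28 dpn, a change of 0.31 ± 0.08 (SE, q = 2.96e-04), which turned to -0.06 when its probe-sets were averaged. Its partners did not share that course: RPLP2 changed by -0.51 ± 0.10 (SE, q = 2.00e-05) and RPLP0 by -0.43 ± 0.08 (SE, q = 8.83e-06). With the 3' to 5' covariates, which moved with stage and cannot be separated from it, few probe-sets of the array were called in this period. Then 0 members rose (5.77% of all) and 30 fell (6.62%), and the medians were -0.61 for the members and -0.03 for all. RPL37 (0.77), RPL26L1 (0.59) and RPLP1 (0.07) kept their sign without being called.

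**Figure D2:**
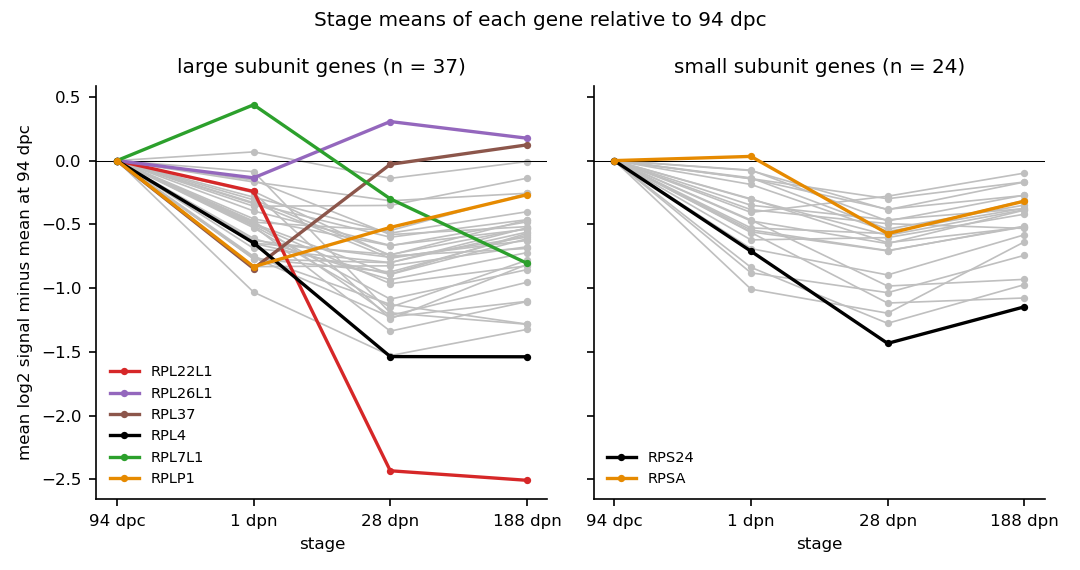
Stage means of each gene on the log2 scale relative to 94 dpc, in the deposited scaling, for 37 large subunit genes (left) and 24 small subunit genes (right), with the named genes coloured and the rest in grey. Most lines go down to 28 dpn and then turn slightly up. RPL22L1 reaches -2.51 and RPL4 -1.54 at 188 dpn, and RPL26L1 ends above 0. With array medians subtracted the median change of period II turns to 0.07.

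In period III most called members were higher at the later stage. In the deposited scaling 37 genes rose, against 18.5% of all tested probe-sets, and 3 fell, against 33.1%. The median change was 0.19, beside -0.10 over all. With quantile normalization 26 rose (25.5%) and 3 fell (25.1%), with a median of 0.10, and with array medians subtracted 53 rose (30.1%) and 1 fell (20.3%), with a median of 0.35. Of the large subunit genes 21 rose and 3 fell, and of the small subunit genes 16 rose and 0 fell. Without overlap, 0 members were higher and 0 lower. Of all tested probe-sets only 0.446% and 0.749% were, so counts of 0 do not set the members apart. The mean of all members per animal shifted by 0.17, beside a pooled SD of 0.13, and the groups overlapped. Without arrays of outlying 3' to 5' difference, 2 of 28 dpn and 4 of 188 dpn, 25 members rose (17.7% of all tested probe-sets). With these differences as covariates 17 rose (15.7%) and 2 fell (22.2%). In the same period 10 of 10 tested proliferation markers and 7 of 8 macrophage markers fell, and their part was not tested. Of 13 named proliferation markers 10 lay above the array median at 28 dpn and 2 at 188 dpn. Most of those tested thus passed the filter through 28 dpn alone.

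The largest rise among called genes was that of RPL17, a protein of the exit tunnel wall, which ranged from 14.04 to 14.71 (median 14.49) at 28 dpn and from 14.69 to 15.05 (median 14.83) at 188 dpn and changed by 0.37 ± 0.06 (SE, q = 7.74e-06). RPL14 changed by 0.32 ± 0.07 (SE, q = 8.09e-05) and RPS15, a protein of the head of the small subunit, by 0.31 ± 0.08 (SE, q = 8.05e-04). RPS25 changed by 0.30 ± 0.07 (SE, q = 2.60e-04) and RPS4X by 0.29 ± 0.06 (SE, q = 8.48e-05). Both genes, among those that fell most in period I, were thus among the 5 largest rises here. The rise of RPS25 turned to -0.14 and that of RPL17 to 0.03, not called, when the probe-sets of a gene were averaged. RPL7L1 fell further, ranging from 10.66 to 11.68 (median 11.25) at 188 dpn, a change of -0.51 ± 0.10 (SE, q = 2.32e-05) that kept its direction under all 3 scalings. RPL7 (-0.15) and RPL26L1 (-0.13) were the other two fallers, and both turned to the other side of 0 with array medians subtracted (0.00 and 0.03). RPL22L1 changed by -0.07 ± 0.10 (SE, q = 0.179) and RPL4 by -0.00, neither of them called.

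From 94 dpc to 188 dpn the median moved with the scaling and with the covariates. In the deposited scaling 52 genes fell, against 53.4% of all tested probe-sets, and 1 rose, against 28.4%, with medians of -0.53 for the members and -0.37 for all. With quantile normalization 45 fell (40.9%) and 3 rose (39.9%), with a median of -0.37. With array medians subtracted 13 fell (31.6%) and 21 rose (50.2%), with a median of 0.12. Beside all tested probe-sets the members' median was the lower one as deposited and with quantile normalization (-0.37 beside -0.01). With array medians subtracted (0.12 beside 0.29) the gap is the deposited one by construction. With 3' to 5' differences as covariates 54 members fell (20.6% of all) and 0 rose (14.1%), and the median was -1.07, beside -0.14 for all. Those differences moved with stage, so this fit cannot separate them from age. As deposited, 15 genes were lower without overlap, against 16.9% of all tested probe-sets. Large subunit genes had a median of -0.60 with 31 of 35 lower and 1 higher, and small subunit genes had -0.40 with 21 of 23 lower and 0 higher.

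The 5 largest falls were RPL22L1 (-2.51 ± 0.09 SE, q = 1.26e-23), RPL4 (-1.54), RPL5 (-1.32), RPL7 (-1.28) and RPS24 (-1.15), a small subunit gene mutated in some forms of Diamond-Blackfan anaemia. Each held under both other scalings. RPS6, the target of the S6 kinases downstream of mTOR, ranged from 14.92 to 15.78 (median 15.51) at 94 dpc and from 14.22 to 14.68 (median 14.51) at 188 dpn, with no overlap and a change of -0.93 ± 0.08 (SE, q = 7.01e-14), again lower under both other scalings. RPSA (-0.32), RPS27A (-0.51), RPLP0 (-0.52), RPLP1 (-0.27) and RPL22 (-0.53) fell in the deposited scaling but lay above 0 with array medians subtracted, between 0.12 and 0.38. RPLP2 changed by -0.69, and by -0.04 without a call with array medians subtracted. RPL26L1 was the 1 gene that rose, ranging from 10.76 to 11.24 (median 10.93) at 94 dpc and from 10.90 to 11.36 (median 11.14) at 188 dpn, a change of 0.18 ± 0.06 (SE, q = 7.15e-04). It was not called with quantile normalization (0.09) and had -0.13 with the 3' to 5' covariates.

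**Figure D3:**
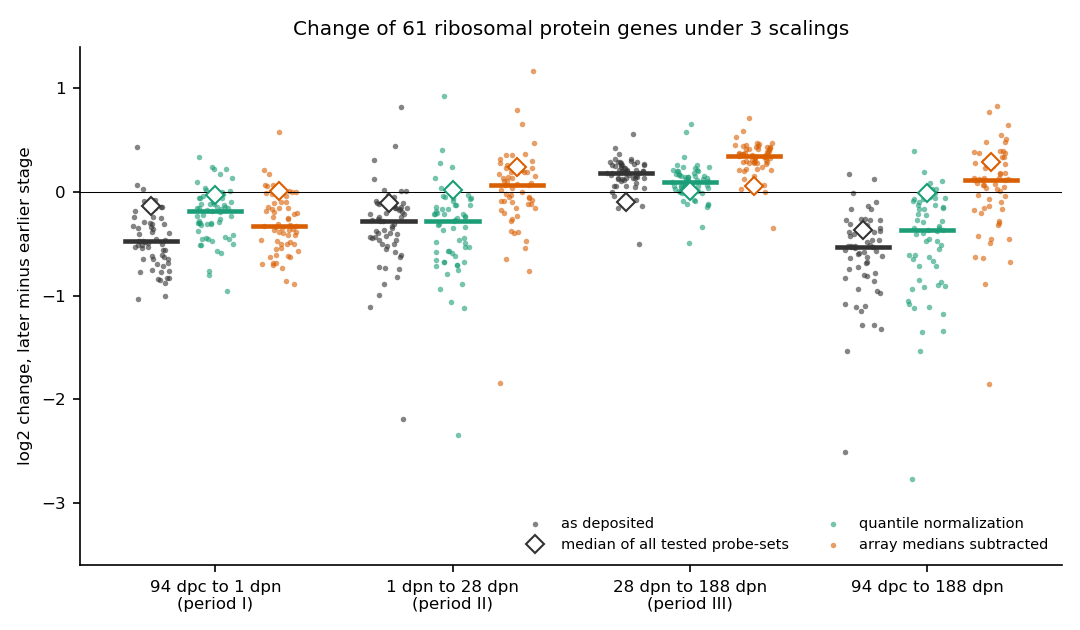
Log2 change of each of the 61 genes (points) in the 4 comparisons, as deposited, with quantile normalization and with array medians subtracted, with the members' median (bar) and the median of all tested probe-sets (diamond). In period I the 3 bars lie below 0 (-0.47, -0.18 and -0.33) and in period III above it (0.19, 0.10 and 0.35). In period II and from 94 dpc to 188 dpn the third scaling turns the bar to 0.07 and 0.12.

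To set members against each other without the scale of the array, the mean log2 of all members was subtracted on every array. From 94 dpc to 188 dpn 24 genes then were higher, against 48.2% of all tested probe-sets, and 16 were lower, against 31.5%. Relative to the other members, RPL22L1 changed by -1.89 ± 0.11 (SE, q = 8.17e-18), RPL4 by -0.92 ± 0.08 (SE, q = 1.07e-12), RPL5 by -0.71 ± 0.08 (SE, q = 7.55e-11), RPL7 by -0.67 ± 0.08 (SE, q = 2.67e-10) and RPS24 by -0.53 ± 0.06 (SE, q = 6.43e-11). At the other end were RPL26L1 (0.79 ± 0.09 SE, q = 6.77e-11), RPL37 (0.74 ± 0.15 SE, q = 6.13e-06), RPL27 (0.61 ± 0.06 SE, q = 4.49e-12), RPS28 (0.52 ± 0.05 SE, q = 3.17e-11) and RPL19 (0.48 ± 0.05 SE, q = 7.85e-11), a protein that helps to bridge the subunits. RPL4 and RPL19 belong to the same subunit and lay at opposite ends. In period I 18 members were higher (50.2% of all) and 19 lower (15.4%) in this measure, in period II 23 and 14 (45.1% and 22.1%), and in period III 10 and 4 (9.36% and 47.3%). RPL37 and RPLP1 were low relative to the other members in period I (-0.39 and -0.38) and high in period II (1.15 and 0.64). RPSA had the opposite course, with 0.48 and then -0.28.

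**Figure D4:**
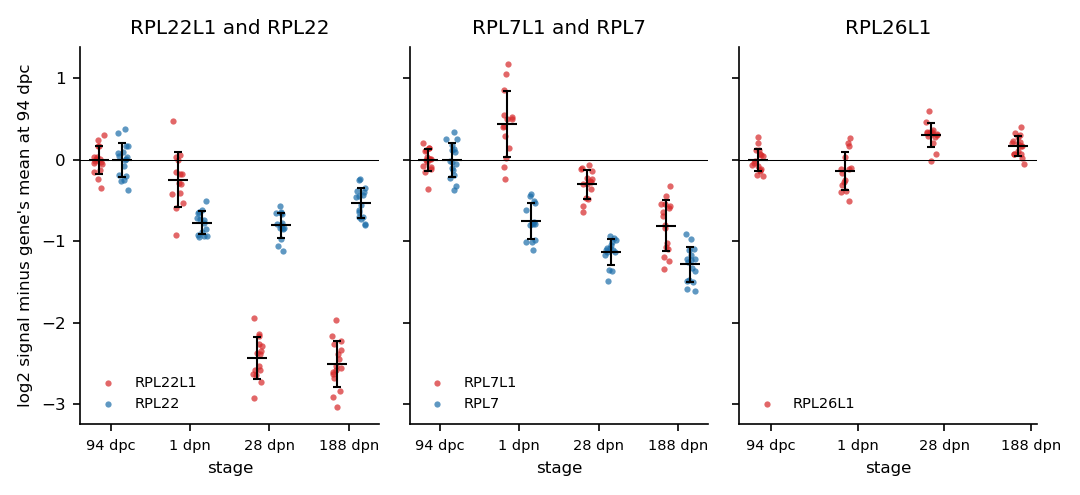
Log2 signal per animal (points) as a difference from the gene's mean at 94 dpc, with mean and SD per stage, for RPL22L1 with RPL22, RPL7L1 with RPL7, and RPL26L1, in the deposited scaling. RPL22L1 falls in period II (-2.19) and RPL22 in period I (-0.77). RPL7L1 is raised at 1 dpn (0.44), when RPL7 is lower (-0.75).

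The paralogues were set beside their partners in each period. RPL22 ranged from 14.95 to 15.70 (median 15.34) at 94 dpc and from 14.38 to 14.82 (median 14.56) at 1 dpn, without overlap, and fell by 0.77 ± 0.08 (SE, q = 8.41e-11) in period I, when RPL22L1 changed by -0.24 ± 0.10 (SE, q = 0.00778). RPL7 ranged from 15.20 to 15.91 (median 15.54) at 94 dpc and from 14.45 to 15.15 (median 14.79) at 1 dpn, without overlap, and changed by -0.75 ± 0.09 (SE, q = 1.80e-09), when RPL7L1 was higher. In periods II and III both fell on the deposited scale, RPL7 by 0.38 and 0.15 and RPL7L1 by 0.74 and 0.51, though RPL7 had -0.03 and 0.00 with array medians subtracted. The directions of RPL22, RPL7 and RPL7L1 in period I held under both other scalings. RPL26, the partner of RPL26L1, was below the filter, with medians of 7.19, 6.94, 6.00 and 6.01 over the 4 stages, so the pair could not be compared. The differences between a gene and its partner were not tested.

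Large and small subunit genes were compared within each array, over the 55 genes tested in every comparison and not counted as paralogues (32 large and 23 small). The choice of these genes was made after seeing the data. The mean of the large minus that of the small subunit genes was -0.29 ± 0.04 (SD, n = 16) at 94 dpc, -0.41 ± 0.05 (n = 14) at 1 dpn, -0.42 ± 0.03 (n = 15) at 28 dpn and -0.42 ± 0.06 (n = 16) at 188 dpn. The value of each stage carries the probe-sets' own brightness, and only its change can be read. It shifted by -0.12 in period I, beside a pooled SD of 0.04, with a slight overlap of the groups, and by -0.01 and -0.00 in periods II and III. In period I the shift was also -0.12 with quantile normalization and -0.14 with each gene's probe-sets averaged. The period II shift was -0.08 and 0.09 under these settings and has no settled sign. Relative to the mean of the 55 genes, 20 of 32 large and 9 of 23 small subunit genes were lower in period I, with medians of -0.03 and 0.07, so both subunits held genes on either side. Over all 61 genes the difference was -0.59, -0.62, -0.72 and -0.77 at the 4 stages, in which the dim probe-sets and paralogues weigh. This difference shifted by -0.03 in period I, beside a pooled SD of 0.10, and by -0.10 in period II, beside 0.08. The period I shift thus belongs to the 55 genes and was not seen over all members. It was given no test, since it is a score over the members.

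**Figure D5:**
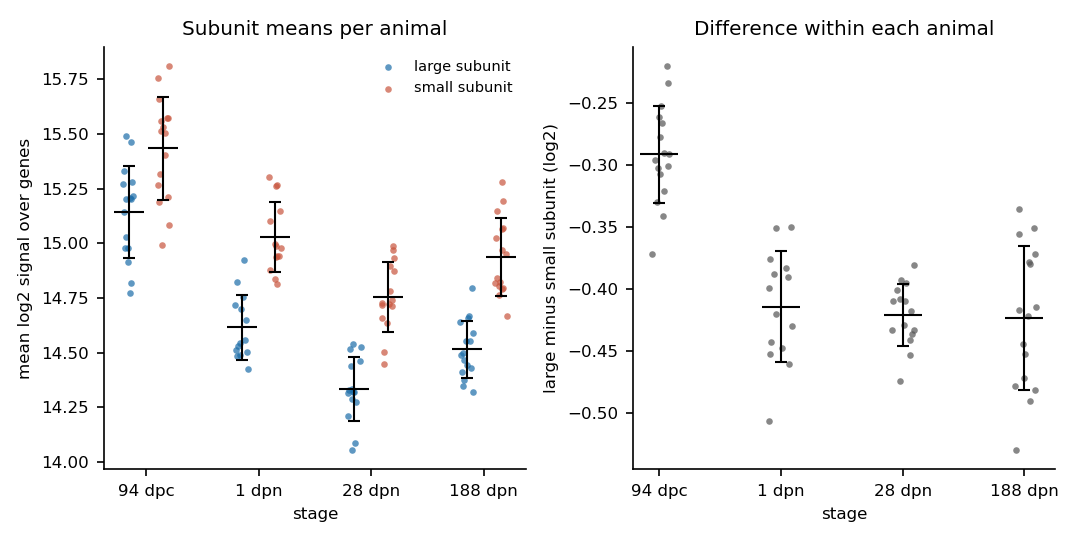
Mean log2 signal of 32 large and 23 small subunit genes per animal (left, deposited scaling) and their difference within the animal (right), by stage, with mean and SD. The difference lies around -0.29 in the fetuses and between -0.41 and -0.42 at the later stages, and the groups of 94 dpc and 1 dpn overlap slightly. These genes were chosen after seeing the data, and over all 61 genes the period I shift was -0.03.

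Animals of 1 stage differed in the level of the whole module. With array medians subtracted, the median correlation between pairs of the 55 genes across animals of a stage was 0.88, 0.75, 0.88 and 0.87 from the earliest to the latest stage, beside 0.03, 0.02, 0.04 and 0.07 over all probe-sets above the filter. These are descriptions over 14 to 16 animals that share the array, its scale and the high signal range, and no test was made. The median SD of the 55 genes among animals of a stage was 0.25, 0.19, 0.18 and 0.20 in the deposited scaling.

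For 7 genes another probe-set of the same symbol was called in the opposite direction in some comparison. RPL35 had a brighter probe-set (mean 15.10) that changed by -0.40 ± 0.09 (SE, q = 3.73e-05) in period I and a dimmer one (mean 9.15) that changed by 0.62 ± 0.14 (SE). Its values from 94 dpc to 188 dpn were -0.54 and 0.96. The dimmer probe-set of RPS27A (mean 7.32) changed by -1.67 in period III, beside 0.19 for the bright one. The others were RPL12 and RPL6 in period III, RPL13A in periods II and III, and RPL24 and RPLP1 in period II, with second probe-sets of mean 7.95 to 11.16. Which probe-set reports the gene was not tested.

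RPL10, the reference gene that the study used for qRT-PCR, was not a member, since its probe-set carries 2 symbols (RPL10 and ANAPC11). The signal of that probe-set ranged from 15.25 to 16.28 (median 15.80) at 94 dpc, from 15.29 to 15.89 (median 15.53) at 1 dpn, from 14.97 to 15.79 (median 15.36) at 28 dpn and from 15.06 to 15.84 (median 15.36) at 188 dpn. All stages overlapped. The changes were -0.18 ± 0.10 (SE, q = 0.0225) in period I, not called since P was above 0.05, -0.19 ± 0.08 (SE, q = 0.00818) in period II, called, 0.04 ± 0.09 (SE, q = 0.231) in period III, not called, and -0.33 ± 0.10 (SE, q = 3.77e-04) from 94 dpc to 188 dpn, called. The range of its stage means, 0.37, was among the smaller ones of the module, whose median was 0.76. Of other common reference genes, PPIA had a range of 0.18 and GAPDH of 0.40, and ACTB, which encodes cytoskeletal actin, had 2.66.

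Other genes of the translation machinery did not all follow the module. As deposited, 25.6%, 28.1%, 18.5% and 28.4% of all tested probe-sets rose in periods I, II, III and from 94 dpc to 188 dpn. In the same order 40.4%, 40%, 33.1% and 53.4% fell. With array medians subtracted 32.8%, 47.1%, 30.1% and 50.2% rose and 31.5%, 22.4%, 20.3% and 31.6% fell. The counts of the lists below are to be read beside these shares. Of 17 named genes for translation factors and other products of terminal oligopyrimidine mRNAs, 15 fell and 1 rose in period I, with a median of -0.94. EIF4B, a cofactor of the initiation helicase, changed by -2.02 ± 0.09 (SE, q = 3.99e-18) and EIF4A2, a form of that helicase, by -1.47 ± 0.08 (SE, q = 1.13e-16). In period III 7 rose and 1 fell, with EIF4B (0.76 ± 0.11 SE, q = 8.37e-07) and EEF1D (0.53 ± 0.10 SE, q = 2.88e-05) the largest rises. In period II 3 rose and 8 fell in the deposited scaling, but 9 rose and 1 fell with array medians subtracted. From 94 dpc to 188 dpn 1 rose and 15 fell, and 2 rose and 8 fell with array medians subtracted. HNRNPA1 changed by -2.34 ± 0.10 (SE, q = 2.15e-21) and EIF3E by -2.05 ± 0.16 (SE, q = 3.74e-14) over that span. EEF1A1 was the 1 that rose as deposited, by 1.64 ± 0.13 (SE, q = 1.75e-14).

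Of 44 named ribosome biogenesis factors, which build the subunits in the nucleolus, 43 were tested in period I. There 15 rose and 15 fell, and the median of the list was 0.04. With quantile normalization 17 rose (30.5% of all) and 11 fell (34%). WDR12, part of a complex that matures large subunit rRNA, changed by 0.81 ± 0.10 (SE, q = 1.23e-08) and NPM1, or nucleophosmin, by -1.04 ± 0.12 (SE, q = 1.30e-09). The largest rise was that of BOP1 (1.62 ± 0.34 SE, q = 2.87e-05) and the largest fall that of UTP18 (-1.34 ± 0.09 SE, q = 4.10e-14). In period II 2 rose and 34 fell, and 5 rose and 19 fell with array medians subtracted. BYSL, needed for the small subunit, then changed by -1.51 ± 0.12 (SE, q = 2.20e-12) and BOP1 by -2.47 ± 0.32 (SE, q = 2.14e-08). In period III 7 rose and 17 fell, but 13 rose and 10 fell with array medians subtracted. From 94 dpc to 188 dpn 7 rose and 30 fell, with NOP58 (-2.28 ± 0.18 SE, q = 3.61e-14) and NPM1 (-2.22 ± 0.10 SE, q = 2.15e-20) the largest falls and NOP10 (1.31 ± 0.08 SE, q = 5.65e-17) the largest rise.

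Mitochondrial ribosomal proteins, which serve the separate ribosomes of mitochondria, went the other way in period I. Of 58 genes 35 rose and 4 fell in period I, with a median of 0.37, and MRPL38 changed by 1.18 ± 0.09 (SE, q = 3.11e-13) and MRPL15 by 1.14 ± 0.08 (SE, q = 7.48e-14). Under both other scalings at least as many rose (35 and 41, beside 30.5% and 32.8% of all). In periods II and III 12 rose in each and 20 and 14 fell, and with array medians subtracted 32 and 28 rose and 1 and 5 fell. From 94 dpc to 188 dpn 30 rose and 11 fell, with MRPS17 (1.61 ± 0.10 SE, q = 1.56e-16) and MRPL28 (1.53 ± 0.09 SE, q = 3.74e-17) the largest rises.

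Of 10 named genes for transcription by RNA polymerase I and of 5S rRNA, 9 were tested. In period I 2 rose and 3 fell, in period II 0 and 2 and in period III 1 and 2. From 94 dpc to 188 dpn 3 rose and 5 fell. With array medians subtracted these counts were 5 and 1 in period II and 5 and 2 over the whole span. POLR1C, a subunit that polymerases I and III share, changed by 0.97 ± 0.10 (SE, q = 1.76e-11) and TAF1D, a polymerase I initiation factor, by -2.39 ± 0.11 (SE, q = 5.47e-20) over the whole span. Of 9 named genes of mTOR signalling and translational control, 8 were tested. In period I 4 rose and 2 fell, in period II 1 and 4 and in period III 4 and 4. From 94 dpc to 188 dpn 2 rose and 3 fell, with 6 and 2 once array medians were subtracted. MYC, a transcription factor that drives ribosome production, changed by -1.32 ± 0.19 (SE, q = 1.47e-07) in period I and -2.32 ± 0.18 (SE, q = 1.97e-14) over the whole span. MAF1, a repressor of RNA polymerase III, changed by 1.33 ± 0.11 (SE, q = 4.31e-14). Some of the lists' counts lay close to or below the shares of all tested probe-sets. Thus 3 of 9 tested polymerase I genes fell in period I, beside 40.4% of all. Over the whole span 3 of 8 tested mTOR genes fell, beside 53.4%. No test of a list was made.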

How the data were processed

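Liver RNA of 61 LP offspring was measured on Affymetrix GeneChip Porcine Genome Arrays, 1 array per animal. The deposited intensity values were made by the authors: 1 globally scaled linear signal per probe-set and array, credited in the submitters' processing notes to GCOS 1.1.1. The GC-RMA values that the study's methods describe were not used here. Depth does not apply to arrays, and the number of animals limits the precision. No 2 arrays held identical values, the highest correlation being 0.92.

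Of 24123 probe-sets, 124 controls were set aside, and 10069 of the others carried 1 symbol, 198 several and 13732 none in the platform's annotation. All 61 members' symbols were in the RefSeq table of the pig, used for names alone. Members and lists were chosen with earlier results of these data known. Scanner-level saturation was not given in the sources used here, and the highest log2 signal on any array was 16.86.

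Differences between stages were tested in R 4.3.3 by limma 3.58.1 (lmFit and eBayes, two-sided, log2 signals, stage as the only term), which was tested on simulated data. Storey q values can lie below P where few probe-sets are unchanged, so P at 0.05 was then the stricter limit. Standard errors are those of limma. The filter on spread used in the study was an alternative, because it keeps probe-sets that differ. Alternatives were quantile normalization, subtraction of array medians or of the members' mean, Benjamini-Hochberg adjustment and SD above 0.25. Others were no or a 25th percentile intensity filter, a pseudocount of 16, all stages in 1 fit, averaging the probe-sets of a gene, and array weights. Either 4 least correlated arrays or 9 arrays of outlying 3' to 5' difference (3 MADs) were also left out. The 3' to 5' differences of GAPDH and actin were taken as covariates. Leaving out paralogues was chosen after seeing the data.

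Named are, per comparison, the 5 members with the largest rise and fall among called ones. From 94 dpc to 188 dpn the 5 at each end relative to the members are named. Also named are the 3 of highest and lowest mean, paralogues, untested members, RPL10, RPS6, RPSA, RPS27A, the stalk proteins and members with opposed probe-sets. Of other lists, some of the 2 largest called rises and falls of a comparison are named. Members without overlap, RPL11, RPL22 and genes listed as not called were added after their values were seen. Figures used matplotlib 3.10.9 in Python 3.11.15.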

Additional observations from a re-analysis of the deposited data

How the results depend on the processing

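Counts are given as higher and lower, and values in the order of periods I, II, III and 94 dpc to 188 dpn. The scaling moved the results most. With quantile normalization 6 members were higher in period I and 3 from 94 dpc to 188 dpn, and the median of period I was -0.18. With array medians subtracted 2, 20, 53 and 21 members were higher and 39, 11, 1 and 13 lower, and the medians of periods II and III and of 94 dpc to 188 dpn were 0.0654, 0.346 and 0.119. With the mean of the members subtracted 18, 23, 10 and 24 were higher and 19, 14, 4 and 16 lower, with medians of -0.0228, 0.0472, 0.0203 and 0.0820. This setting centres the members by construction, and for the other settings the cause was not tested.

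With 3' to 5' differences as covariates 0, 0, 17 and 0 members were higher and 42, 30, 2 and 54 lower, where 19.8%, 5.77%, 15.7% and 14.1% of all tested probe-sets were higher and 29.2%, 6.62%, 22.2% and 20.6% lower. The members' medians of period II and of 94 dpc to 188 dpn were then -0.61 and -1.07. The covariates moved with stage, so these fits cannot separate them from age. Without arrays of outlying 3' to 5' difference 0 members were higher from 94 dpc to 188 dpn. In period III 1 member was lower with Benjamini-Hochberg adjustment, without the intensity filter and without paralogues, 6 with the probe-sets of each gene averaged, and SD above 0.25 left 5 tested members, of which 2 were higher and 1 lower. From 94 dpc to 188 dpn 0 were higher with SD above 0.25, 3 with the mean of probe-sets and 0 without paralogues. In period I 0 were higher without paralogues. The shift of the large minus the small subunit in period II was -0.0123 with the mean of probe-sets and -0.00685 without paralogues and untested members, beside -0.10 over all members.

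Of 35 values of named genes in a comparison, array medians subtracted turned 7: RPL7 (0.00410) and RPL26L1 (0.0282) in period III, and RPSA (0.33), RPS27A (0.14), RPLP0 (0.13), RPLP1 (0.38) and RPL22 (0.12) from 94 dpc to 188 dpn. With the mean of the members subtracted the same 5 of that span turned, to 0.296, 0.100, 0.0962, 0.346 and 0.0864. The mean of probe-sets turned RPLP1 in period II (-0.0567) and RPS25 in period III (-0.14), and the covariates turned RPL26L1 from 94 dpc to 188 dpn (-0.13). Quantile normalization, array weights and the pseudocount turned 0.

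No paired analysis was possible because the numbers in the labels name single animals and no number is shared between stages. Members lie at the top of the signal range, where saturation could not be checked, and untested members lie near background.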
